A study of Homo sapiens with 6 samples.

Results

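The 59 genes described here lie on the long arm of human chromosome 16, in a set named for bands q12 to q23. They were chosen by their FPKM values in these same 6 libraries, where their RNA was lower in NCI-H1650Re cells than in NCI-H1650 cells. FPKM stands for fragments per kilobase of transcript and per fixed number of mapped fragments. The members were then listed by name, and because they were selected on this contrast their differences between the lines are a description and carry no test. Of the 59 names, 56 had a row among the 12659 genes of the expression table, and all 56 were among the 11764 genes whose mean reached at least 1 FPKM in either line. Each of the 56 also had a mean above 1 FPKM in both lines, with ELMO3 lowest. CFDP1, DDX19B and SNTB2 had no row and are not analysed here.

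NCI-H1650 is an established human lung adenocarcinoma cell line, labelled as the state before transformation (pre-LUAD). NCI-H1650Re is labelled as the state after transformation to small cell lung cancer (post-SCLC). The cell line field names NCI_H1650 for both, and the labels do not say how NCI-H1650Re was made. Polyadenylated RNA was sequenced in 3 libraries per line, with no treatment given for either. The labels do not say that the 3 libraries of a line came from separate cultures, so the spread among them may be technical. Per-library values below are in the order of replicates 1, 2 and 3.

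The members share an address and not a pathway. They include subunits of assemblies found in every cell, such as retromer, shelterin, the nuclear pore and RNA polymerase II, and the other subunits of those assemblies are mostly encoded on other chromosomes. The steady level of a messenger RNA depends on how many copies of its gene a cell has, on how often each copy is transcribed and on how long the RNA lasts. FPKM values do not separate these. The values are also from bulk RNA, in which fewer cells of a type and less RNA per cell cannot be told apart.

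In the GENCODE 29 annotation of GRCh38, the first member by position is VPS35, with its lower end at chr16:46656132, and the last is TERF2IP, with its lower end at chr16:75647786. Together the members span 29.1 Mb, with 33 genes on the forward strand and 23 on the reverse. RefSeq promoter windows on GRCh38.p14, running from 250 bases before to 50 bases after an annotated start, were matched by symbol for 50 of the 59 members (68 windows). The windows were rich in CpG, with a median of 27 CpG dinucleotides in 300 bases beside 14 over all 35116 windows of the table. Their median GC content was 65.7% beside 58.7%. The 35116 windows were not limited to genes expressed in these cells. The contrasts with them, here and for the motifs below, therefore do not set the members apart from other expressed genes.

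Of these windows 4 are printed because they bear on how evenly neighbours were lowered. The first 2 each serve a pair of genes that face away from each other, and the last 2 belong to neighbours on the same strand. They are chr16:47461049-47461348 for PHKB, chr16:57447229-57447528 for COQ9, chr16:67191905-67192204 for E2F4 and chr16:67198881-67199180 for ELMO3, all on the forward strand, 5′ to 3′. Capitals mark the letters of motifs searched on both strands: the CCAAT box, the GC box GGGCGG, the ETS motif CCGGAAGT, the TATAAA box, and the NRF1 and YY1 motifs. Matches of different motifs may overlap.
PHKB: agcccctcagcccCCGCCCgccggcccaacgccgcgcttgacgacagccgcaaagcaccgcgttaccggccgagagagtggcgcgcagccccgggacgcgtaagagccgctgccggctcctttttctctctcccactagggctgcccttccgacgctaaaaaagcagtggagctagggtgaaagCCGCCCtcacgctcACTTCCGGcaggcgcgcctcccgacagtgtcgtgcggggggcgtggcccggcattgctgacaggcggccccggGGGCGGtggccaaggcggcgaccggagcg
COQ9: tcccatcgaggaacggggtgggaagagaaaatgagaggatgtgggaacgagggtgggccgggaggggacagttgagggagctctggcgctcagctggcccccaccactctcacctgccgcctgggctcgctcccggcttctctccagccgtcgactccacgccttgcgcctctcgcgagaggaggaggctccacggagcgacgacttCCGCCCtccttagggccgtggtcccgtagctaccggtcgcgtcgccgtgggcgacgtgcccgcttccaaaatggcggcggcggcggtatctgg
E2F4: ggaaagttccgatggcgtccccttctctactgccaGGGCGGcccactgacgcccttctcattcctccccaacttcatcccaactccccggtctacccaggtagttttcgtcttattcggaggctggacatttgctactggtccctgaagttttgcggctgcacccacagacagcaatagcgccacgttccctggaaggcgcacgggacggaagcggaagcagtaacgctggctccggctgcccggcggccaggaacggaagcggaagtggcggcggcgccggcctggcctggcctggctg
ELMO3: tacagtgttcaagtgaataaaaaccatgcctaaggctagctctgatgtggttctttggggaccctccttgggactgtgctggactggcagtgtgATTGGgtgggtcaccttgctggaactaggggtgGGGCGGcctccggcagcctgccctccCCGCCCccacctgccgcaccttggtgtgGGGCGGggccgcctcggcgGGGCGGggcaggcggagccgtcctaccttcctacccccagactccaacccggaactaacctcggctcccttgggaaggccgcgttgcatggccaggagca

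The PHKB window shares 265 bases with the window of ITFG1 on the reverse strand, and the COQ9 window shares 193 bases with that of CIAPIN1, with identical letters on the shared stretch. PHKB and ITFG1 were both among the lower members, at log2 changes of -0.92 and -1.16. COQ9 was at -0.70 while its facing partner CIAPIN1 was at -0.26, so a shared window did not go with an equal change in that pair. GGGCGG was found in 73.5% of the members' windows beside 45.0% of all windows, and CCGGAAGT in 14.7% beside 4.14%. CCAAT was found in 33.8% beside 34.6% and TATAAA in 4.41% beside 11.5%. The NRF1 motif was found in 2.94% beside 1.24% and the YY1 motif in 2.94% beside 0.849%. A match is a description of letters and not a binding site.

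All 56 members had a log2 change below 0, where 45.1% of all genes tested did. Every log2 change here is NCI-H1650Re minus NCI-H1650 on the log2(FPKM + 1) scale, which understates the change of genes with low values. The median over the members was -0.61, with quartiles of -0.75 and -0.41, beside a median of 0.03 over all genes tested. In plain levels, the median member stood at 63.9% of its NCI-H1650 mean, with a range from 32.2% to 98.2%. The level in NCI-H1650Re was between 50% and 75% of that in NCI-H1650 for 35 members, above 75% for 13 and below 50% for 8. Between 50% and 75% lay 9.36% of all genes tested.

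In limma's moderated test across all genes, adjusted by the Benjamini-Hochberg method at 0.05, 51 of the 56 members were called lower, where 13.9% of genes tested were called lower and 16.6% higher. AKTIP, NUP93, TK2, CBFB and ELMO3 were not past the threshold. The 3 libraries of NCI-H1650Re all lay below the 3 of NCI-H1650 for 52 members, as for 21% of genes tested, while 26.3% of genes tested lay wholly above. Because the members were taken from this contrast, nothing is read from these counts. A log2 change of -0.5 or lower was found for 38 members (7.91% of genes tested) and of -1 or lower for TRADD, ITFG1, GLG1 and LONP2.

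The lowering was found in every NCI-H1650Re library. Relative to the mean of the NCI-H1650 libraries, the median member deviated by -0.57, -0.58 and -0.64 on the log2 scale in the 3 NCI-H1650Re libraries. The same median was 0.01, -0.01 and 0.01 in the NCI-H1650 libraries themselves. Over all genes tested, the median deviation in the NCI-H1650Re libraries was 0.05, 0.04 and 0.02. Of the 56 members, 55, 54 and 56 lay below the NCI-H1650 mean in the 3 NCI-H1650Re libraries. When each NCI-H1650Re library was set against each NCI-H1650 library, 54 to 56 members were lower in each of the 9 pairs, with medians from -0.54 to -0.65. Pairs of libraries within a line differed by a member median of -0.02 to 0.05. All 9 pairs were lower for 52 members, 8 of 9 for AKTIP and TK2, and 4 of 9 for CBFB and ELMO3.

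**Figure D1:**
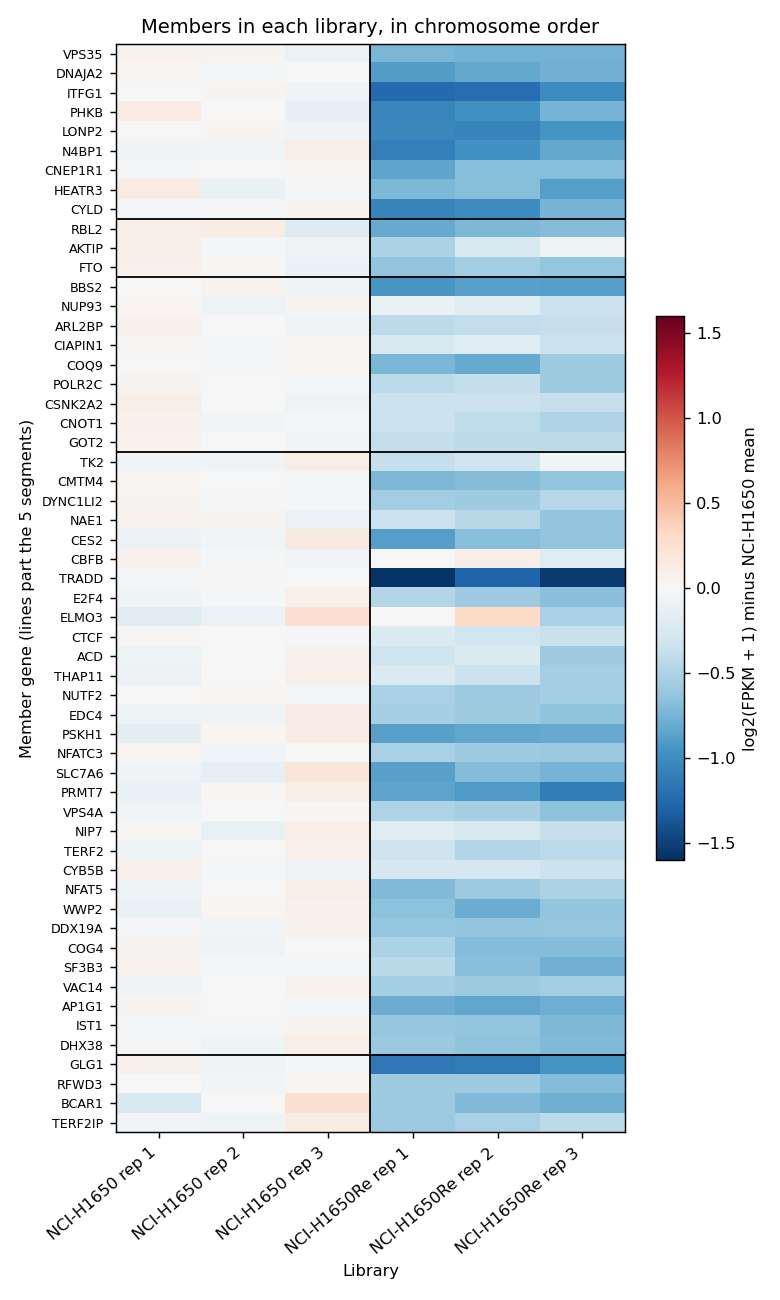
Heat map of the members (rows, in chromosome order) in the 6 libraries (columns), coloured by log2(FPKM + 1) minus the mean of the 3 NCI-H1650 libraries. The 3 NCI-H1650Re columns are at the low end for nearly all rows, while the 3 NCI-H1650 columns stay near 0. In the NCI-H1650Re columns CBFB is near 0 and ELMO3 is uneven, at -0.01, 0.32 and -0.52.

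How far the members moved was less even than the direction. The SD of the log2 change over the members was 0.27, beside a median SE of 0.08 for a single member and an SD of 0.41 over all genes tested. The Spearman correlation between a member's level and its change was -0.01 across the 56 genes, which share the same libraries and are not replicates. Within a line the members were measured closely, with a median coefficient of variation of 4.97% in NCI-H1650 and 6.32% in NCI-H1650Re.

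The change also differed along the chromosome. Cut wherever neighbouring members start more than 2 Mb apart, the interval fell into 5 stretches, a division that uses no expression value. The 9 genes from VPS35 to CYLD, nearest the centromere, had the lowest median, -0.92, with a range of -1.16 to -0.73, so that the median gene of the stretch stood at 49.5% of its NCI-H1650 level. The 9 from BBS2 to GOT2 had the smallest change, with a median of -0.41 and a level of 74.9%. The 31 from TK2 to DHX38 had a median of -0.57 (65.7%) and the 4 from GLG1 to TERF2IP of -0.65 (62.5%). RBL2, AKTIP and FTO, the remaining 3, had a median of -0.60.

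The ends of this order were the same in each NCI-H1650Re library, but not the places between. The VPS35 to CYLD stretch was the lowest in each NCI-H1650Re library, with medians of -1.03, -0.96 and -0.77. The BBS2 to GOT2 stretch stayed at -0.39, -0.39 and -0.42, the smallest change in each. The TK2 to DHX38 stretch was at -0.52, -0.58 and -0.63. RBL2 to FTO was at -0.63, -0.56 and -0.62 and GLG1 to TERF2IP at -0.58, -0.64 and -0.73, so these stretches changed places among the libraries. In replicate 3 of NCI-H1650Re, GLG1 to TERF2IP was nearly as low as VPS35 to CYLD.

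**Figure D2:**
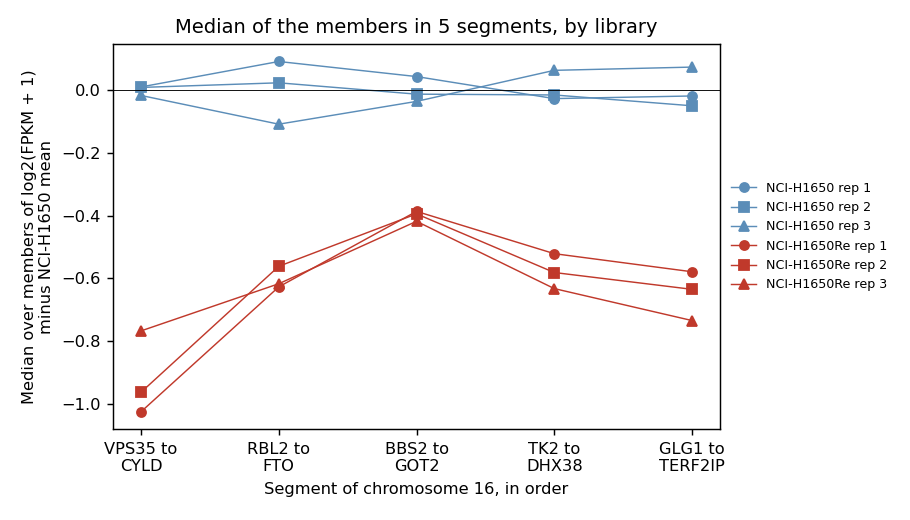
Median log2 deviation from the NCI-H1650 mean for each of the 5 stretches of members, with 1 point per library. In each NCI-H1650Re library the VPS35 to CYLD stretch is lowest (-1.03, -0.96 and -0.77) and the BBS2 to GOT2 stretch is the least changed (-0.39, -0.39 and -0.42).

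Adjacent members differed in log2 change by a median of 0.18, over 55 neighbouring pairs, where all 1540 pairs of members differed by a median of 0.26. The widest step was from CBFB to TRADD, 125 kb apart, at 1.43. E2F4 and ELMO3 start 6.94 kb apart, and their windows are printed above. E2F4 was at -0.57 and ELMO3 at -0.07, with 95% intervals of -0.75 to -0.40 and -0.57 to 0.43. The intervals overlap and ELMO3 was low, at 0.9 to 2.40 FPKM, so a difference between these neighbours is not established.

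VPS35, the cargo-binding core of retromer, which returns membrane proteins from endosomes, was at 38.9, 38.4 and 34.7 FPKM in NCI-H1650 and 22.04, 21.6 and 21.7 FPKM in NCI-H1650Re. Every NCI-H1650Re library was below every NCI-H1650 library, for a log2 change of -0.75 (SE 0.07). Among the 11 members that act in membrane and cargo transport the median was -0.63. Of the 11, 10 were called lower, where 13.9% of all genes tested were. Counts called lower in this and the other role groups follow from how the members were chosen. Nothing is read from them. GLG1, a membrane sialoglycoprotein of the Golgi apparatus, changed most in this group, at 87.5, 79.9 and 82.5 FPKM in NCI-H1650 and 37.1, 37.8 and 42.9 FPKM in NCI-H1650Re. Its lines were well apart, with a log2 change of -1.07 (SE 0.08). AKTIP, which joins Hook proteins to vesicles, was the least changed, at 13.4, 12.2 and 12.00 FPKM in NCI-H1650 and 8.55, 10.5 and 12.1 FPKM in NCI-H1650Re. The AKTIP libraries of the lines overlapped, and its log2 change was -0.27 (SE 0.12). Between these lay BBS2 of the ciliary BBSome (-0.89), AP1G1, the large subunit of the AP-1 clathrin adaptor (-0.80), and COG4 of the Golgi tether (-0.63). IST1 and VPS4A, which remodel and disassemble ESCRT-III filaments, were at -0.66 and -0.56. VAC14, the scaffold of the PIKfyve lipid kinase, was at -0.55, the dynein light intermediate chain DYNC1LI2 at -0.52 and the ARL2 effector ARL2BP at -0.40.

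The 11 members in metabolism, organelle proteolysis and chaperoning had a median of -0.73, and 10 were called lower, beside 13.9% of genes tested. LONP2, the Lon protease of peroxisomes, was at 16.5, 16.96 and 15.7 FPKM in NCI-H1650 and 7.52, 7.26 and 7.92 FPKM in NCI-H1650Re, without overlap and with a log2 change of -1.02 (SE 0.07). PHKB, the regulatory beta subunit of phosphorylase kinase, followed at -0.92, and the Hsp70 co-chaperone DNAJA2 was at -0.83. SLC7A6, a transporter of cationic amino acids, was at -0.77, the carboxylesterase CES2 at -0.73 and CNEP1R1, a partner of a nuclear envelope phosphatase, at -0.73. COQ9, which binds lipid intermediates of coenzyme Q synthesis, was at -0.70. GOT2, the mitochondrial aspartate aminotransferase, was at 68.6, 66.01 and 64.2 FPKM in NCI-H1650 and 50.5, 49.2 and 49.3 FPKM in NCI-H1650Re. Its NCI-H1650Re values were all below those of NCI-H1650, with a log2 change of -0.41 (SE 0.06). TK2, the mitochondrial thymidine kinase, was the least changed of the group, at 8.13, 8.04 and 9.12 FPKM in NCI-H1650 and 6.28, 6.57 and 8.11 FPKM in NCI-H1650Re. The TK2 libraries overlapped between the lines, with a log2 change of -0.24 (SE 0.10). CYB5B, the cytochrome b5 of the outer mitochondrial membrane, was at -0.30 and CIAPIN1, which passes electrons to cytosolic iron-sulfur assembly, at -0.26.

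The 12 members in ubiquitin handling, signalling and adhesion had the lowest group median, -0.77, and 11 were called lower, beside 13.9% of genes tested. TRADD, the adaptor of the death domain of TNF receptor 1, had the largest change of all members, at 14.5, 14.9 and 14.7 FPKM in NCI-H1650 and 4.29, 5.47 and 4.44 FPKM in NCI-H1650Re. All NCI-H1650Re libraries were far below those of NCI-H1650, with NCI-H1650Re at 32.2% of the NCI-H1650 mean, and the log2 change was -1.46 (SE 0.09). CYLD, a deubiquitinase that restrains NF-kB signalling, was at 6, 5.91 and 6.28 FPKM in NCI-H1650 and 2.38, 2.51 and 3.22 FPKM in NCI-H1650Re. Its libraries did not overlap, with a log2 change of -0.94 (SE 0.10). NAE1, a subunit of the enzyme that activates NEDD8, was at 44.99, 44.8 and 40.4 FPKM in NCI-H1650 and 33.8, 31.6 and 27.5 FPKM in NCI-H1650Re, a smaller change of -0.48 (SE 0.09). BCAR1 (p130Cas), a scaffold of integrin adhesions, was at 52.9, 62.5 and 74.4 FPKM in NCI-H1650 and 41.7, 38.00 and 36.2 FPKM in NCI-H1650Re. The BCAR1 values also lay apart, at a log2 change of -0.69 (SE 0.12). CSNK2A2, the alpha prime catalytic subunit of casein kinase 2, was at 25.1, 23.4 and 22.3 FPKM in NCI-H1650 and 18.4, 18.4 and 18.1 FPKM in NCI-H1650Re, a log2 change of -0.35 (SE 0.07).

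ELMO3, of a family of engulfment adaptors that act with DOCK proteins, was the least changed of that group and the lowest expressed member, at 1.43, 1.55 and 2.25 FPKM in NCI-H1650 and 1.71, 2.40 and 0.9 FPKM in NCI-H1650Re. Its libraries overlapped and its log2 change was -0.07 (SE 0.22). Without replicate 3 of NCI-H1650Re the ELMO3 value was 0.16, and without replicate 3 of NCI-H1650 it was 0.06, both above 0. The others of the group were ITFG1 (-1.16), the arginine methyltransferase PRMT7 (-0.96), N4BP1, which binds the ubiquitin ligase NEDD4 (-0.96), and the kinase PSKH1 (-0.83). The ubiquitin ligase WWP2 was at -0.70 and the membrane protein CMTM4 at -0.68.

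The 10 members in RNA processing, export and ribosome assembly had a median of -0.59, and 9 were called lower, beside 13.9% of genes tested. HEATR3, which accompanies ribosomal proteins into the nucleus, was at 13.8, 11.5 and 12.4 FPKM in NCI-H1650 and 7.19, 7.44 and 6.35 FPKM in NCI-H1650Re, a log2 change of -0.76 (SE 0.09) without overlap. SF3B3, a subunit of the splicing factor that recognises the branch point, was at 62.00, 58.4 and 58.7 FPKM in NCI-H1650 and 43.9, 37.02 and 34.7 FPKM in NCI-H1650Re. All NCI-H1650Re values of SF3B3 were below those of NCI-H1650, with a log2 change of -0.63 (SE 0.09). FTO, which removes methyl groups from adenines in RNA, was at 6.02, 5.74 and 5.15 FPKM in NCI-H1650 and 3.29, 3.49 and 3.32 FPKM in NCI-H1650Re, a log2 change of -0.60 (SE 0.08). CNOT1, the scaffold of the CCR4-NOT deadenylase, was at 68.1, 63.1 and 63.5 FPKM in NCI-H1650 and 50.8, 48.7 and 45.8 FPKM in NCI-H1650Re. Its change was smaller, -0.41 (SE 0.07), again without overlap. DDX19A, a helicase of mRNA export, was at 34.2, 33.9 and 36.4 FPKM in NCI-H1650 and 22.3, 22.2 and 22.2 FPKM in NCI-H1650Re, a log2 change of -0.62 (SE 0.06). DDX19A has a near-identical neighbour, DDX19B, which is not analysed here, so reads may have been divided between them and the DDX19A value is uncertain.

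NUP93, of the inner ring of the nuclear pore, was the least changed of the RNA group, at 18.1, 16.6 and 18.2 FPKM in NCI-H1650 and 16.2, 15.3 and 13.7 FPKM in NCI-H1650Re. Its libraries did not overlap, but its log2 change of -0.21 (SE 0.08) was not past the threshold. The splicing helicase DHX38 was at -0.65, the decapping scaffold EDC4 at -0.58, NUTF2, the import carrier of Ran, at -0.55, and the ribosome assembly factor NIP7 at -0.26.

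The 8 members in transcription had a median of -0.51, and 7 were called lower, beside 13.9% of genes tested. RBL2 (p130), a relative of the retinoblastoma protein that represses cell cycle genes in quiescent cells, was at 34.3, 34.9 and 27.6 FPKM in NCI-H1650 and 17.9, 19.02 and 19.5 FPKM in NCI-H1650Re. RBL2 changed most in this group, with a log2 change of -0.74 (SE 0.10). E2F4, the E2F factor that works with p130, was at 58.9, 60.9 and 65.3 FPKM in NCI-H1650 and 44.1, 40.8 and 38.4 FPKM in NCI-H1650Re, and its log2 change was -0.57 (SE 0.08). NFAT5, the factor of the response to high salt, was at 9.24, 9.79 and 10.7 FPKM in NCI-H1650 and 5.69, 6.27 and 6.64 FPKM in NCI-H1650Re, a log2 change of -0.60 (SE 0.08). Its relative NFATC3, which calcineurin switches on, was at 13.4, 12.7 and 13.2 FPKM in NCI-H1650 and 8.87, 8.46 and 8.30 FPKM in NCI-H1650Re, a log2 change of -0.56 (SE 0.07). For these 4 factors the NCI-H1650Re libraries lay below all NCI-H1650 libraries. CTCF, which binds insulators and halts cohesin, was at 27.3, 27.1 and 26.6 FPKM in NCI-H1650 and 23.01, 21.6 and 20.8 FPKM in NCI-H1650Re. The change of CTCF was modest, -0.30 (SE 0.07).

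CBFB, the shared partner of the RUNX factors, was the least changed of the 56, at 12.8, 11.8 and 11.8 FPKM in NCI-H1650 and 12.2, 13.1 and 10.4 FPKM in NCI-H1650Re. The CBFB libraries of the lines were interleaved and its log2 change was -0.03 (SE 0.09), with a 95% interval of -0.24 to 0.18. Without replicate 3 of NCI-H1650Re it was 0.05 and without replicate 1 of NCI-H1650 it was 0.01. CBFB and ELMO3 therefore go against the description of the set as lowered. POLR2C, a core subunit of RNA polymerase II, was at -0.46 and the zinc finger factor THAP11 at -0.37.

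The 4 members in telomere and genome upkeep had a median of -0.46, and all 4 were called lower, beside 13.9% of genes tested. TERF2, which binds telomere repeats and shields chromosome ends, was at 24.3, 25.3 and 27.02 FPKM in NCI-H1650 and 20.03, 18.3 and 18.9 FPKM in NCI-H1650Re, a log2 change of -0.41 (SE 0.07). TERF2IP (RAP1), which rides on TERF2, was at 26.1, 25.4 and 29.1 FPKM in NCI-H1650 and 17.6, 18.4 and 19.8 FPKM in NCI-H1650Re, a log2 change of -0.51 (SE 0.08). ACD (TPP1), which links shelterin to telomerase, was at 22.2, 23.6 and 24.6 FPKM in NCI-H1650 and 18.7, 20.03 and 15.5 FPKM in NCI-H1650Re, the smallest change of the group at -0.37 (SE 0.10). Each of these 3 shelterin subunits was lower in all NCI-H1650Re libraries than in any NCI-H1650 library. RFWD3, a ubiquitin ligase that acts at stalled replication forks, was at 21.1, 20.4 and 21.6 FPKM in NCI-H1650 and 13.8, 13.9 and 12.6 FPKM in NCI-H1650Re, a log2 change of -0.61 (SE 0.07).

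**Figure D3:**
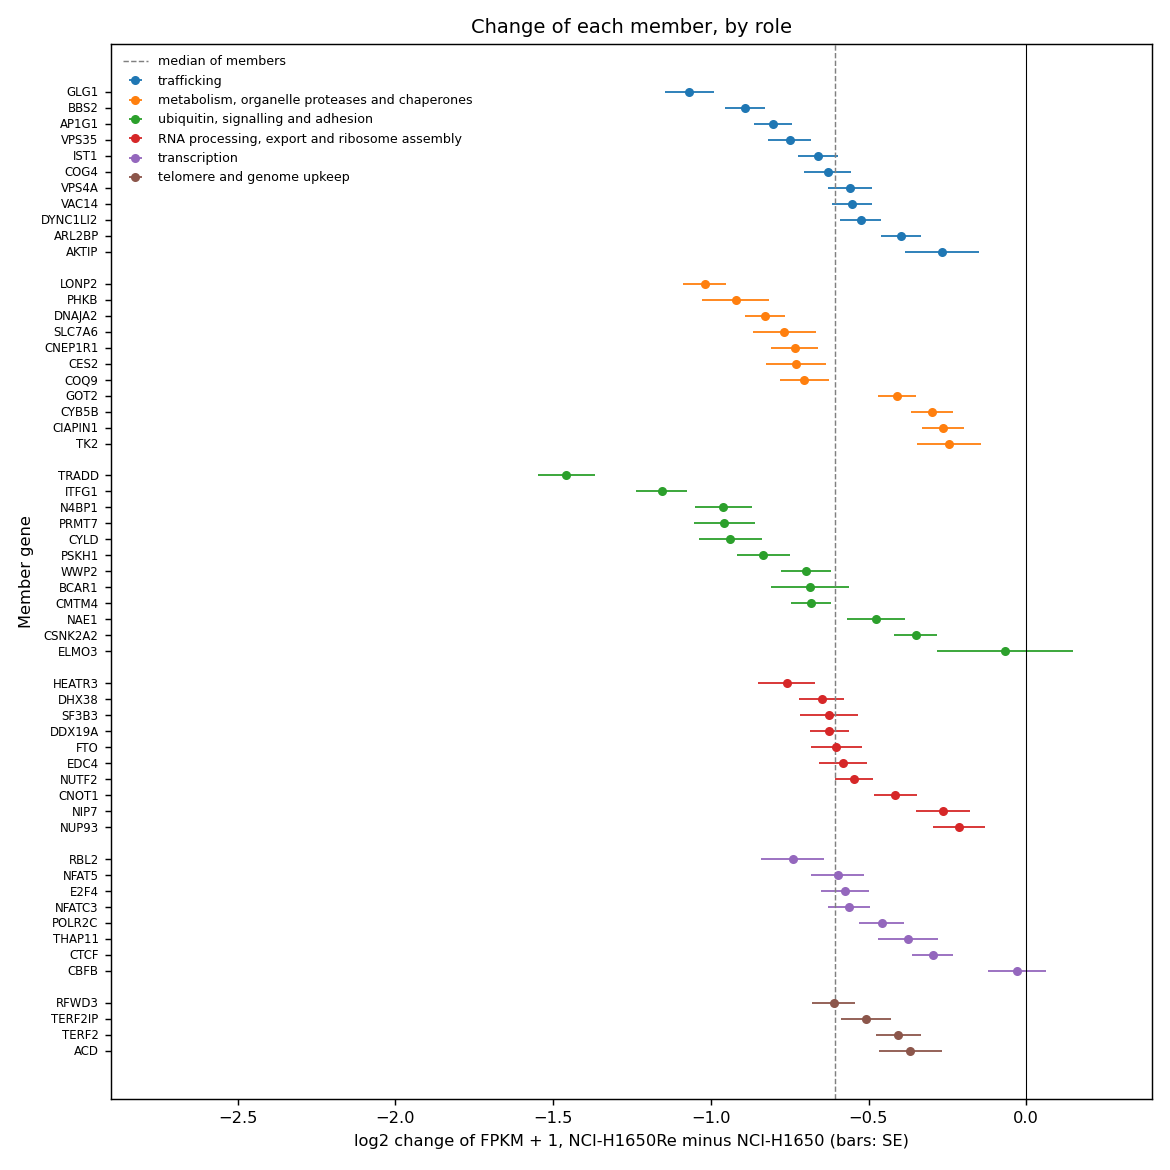
Log2 change (NCI-H1650Re minus NCI-H1650, log2(FPKM + 1)) of the 56 members in 6 role groups, with 1 point per gene and bars of 1 SE; the dashed line is the median of all members (-0.61). Group medians run from -0.77 (ubiquitin, signalling and adhesion) to -0.46 (telomere and genome upkeep), and the lowest point is TRADD at -1.46.

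In the authors' deposited table, 8 of the 56 members were marked down and 0 up, where 4.27% of all genes were marked down and 2.53% up. The 8 were ITFG1, PHKB, LONP2, N4BP1, CYLD, TRADD, PRMT7 and GLG1. Over the 56, the log2 fold changes in the authors' deposited table ran from -1.66 to -0.06 with a median of -0.67, and 51 had an FDR under 0.05. Of all genes in the authors' deposited table, 14.9% were lower with an FDR under 0.05, and nothing is read from the members' count. The weakest log2 fold change marked down anywhere in the authors' deposited table was -1.001, and the other members were not marked. The 8 marked members had between 340 and 16130 estimated reads per library.

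The genes that lie among the members, and are not on the list, were lower too, which is again a description because the interval was found from this contrast. Of 110 such genes tested, 106 had a log2 change below 0, beside 45.1% of all genes tested, with a median of -0.53. Of the 110, 87 were called lower and 2 higher, beside 13.9% and 16.6% of all genes tested. By stretch, the medians of these genes were -0.61 (10 genes, VPS35 to CYLD), -0.34 (22, BBS2 to GOT2), -0.57 (53, TK2 to DHX38) and -0.56 (10, GLG1 to TERF2IP). The rest lie between stretches or in RBL2 to FTO (1 gene, -0.53). The BBS2 to GOT2 stretch was thus the least changed of these 4 for members and others alike. In VPS35 to CYLD the other genes were close to those of TK2 to DHX38 and GLG1 to TERF2IP, whereas the members there were at -0.92. Over all 110 genes the spread was wider than over the members, with an SD of 0.45 beside 0.27. The lowest was CALB2 (calretinin, a calcium-binding protein), at 26.1, 26.00 and 26.5 FPKM in NCI-H1650 and 1.81, 3.67 and 4.94 FPKM in NCI-H1650Re, a log2 change of -2.67. CBLN1, a secreted protein of synapses, was at -2.20, the hyaluronan synthase HAS3 at -1.73, the adenylyl cyclase ADCY7 at -1.34 and the cadherin CDH3 at -1.30. CDH1 (E-cadherin) was at -0.82.

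A few genes within the interval were not lower. The metallothioneins MT1F and MT1E, which bind zinc and copper and have near-identical relatives beside them, were at 1.23 and 0.73, and both are uncertain for that reason. The alanyl-tRNA synthetase AARS was at 0.20, the adhesion receptor ADGRG1 at 0.06 and the kinesin KIFC3 at -0.01, none past the threshold.

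The lowered run had edges on both sides. On the centromere side, the last short-arm genes, ZNF720 and ZNF267, were at 0.04 and 0.00. After 14.7 Mb without a tested gene, SHCBP1, the first on the long arm, was at -0.58, next to VPS35 at -0.75. Beyond TERF2IP the next 3 genes tested were SYCE1L (-0.86), WWOX (-0.27) and CDYL2 (0.04), and 8 of the 11 tested up to PLCG2 were called lower, with a median of -0.59. CMIP was at -0.84 and PLCG2 at -0.16. From MPHOSPH6 (0.55) to the end of the chromosome none of 56 genes tested was below 0, 45 were called higher, and the median was 0.50. The 282 genes tested on the short arm had a median of -0.02. The short arm was not even, with 84 genes called lower and 41 higher. Its tested genes from LITAF (-0.84) to DCTN5 (-0.76) were all below 0 except NPIPA5 (0.05). A lowered run was therefore not particular to the long arm. Over all genes tested, 13.9% were called lower and 16.6% higher.

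**Figure D4:**
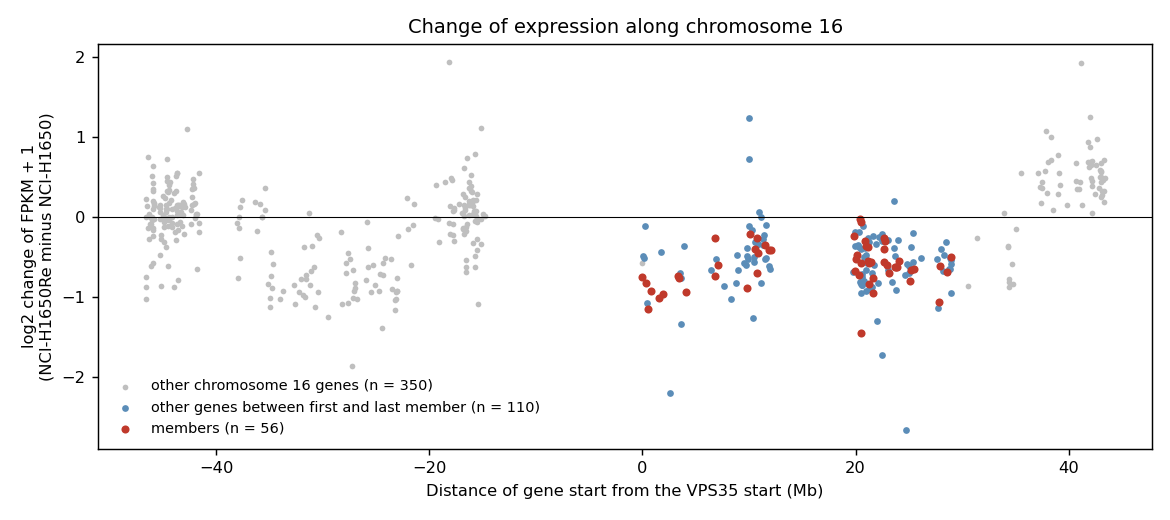
Log2 change (NCI-H1650Re minus NCI-H1650) of the chromosome 16 genes tested, against the distance of the gene's start from that of VPS35 in Mb, with members and other genes in different colours. The members and the genes between them lie mostly below 0, and the genes at the far right, from MPHOSPH6 on, lie above 0.

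Because many members are subunits of assemblies, the partners encoded on other chromosomes were compared by the same fit, and these had no part in how the members were chosen. Of 148 partners listed, 16 had no row, 6 lie on chromosome 16, and 125 of the remaining 126 were tested. Of these 125, 11 fell and 11 rose past the threshold (8.80% in each direction, beside 13.9% and 16.6% of all genes), and their median log2 change was 0.02. The median of the members lay below that of their partners in 22 of 24 assemblies, and below every tested partner in 20. The members' side of that comparison was fixed by their selection. The count of partners past the threshold depended on the libraries: it was 14 without replicate 1 of NCI-H1650, 11 without its replicate 2, 11 without replicate 2 of NCI-H1650Re, 34 without its replicate 3, and 39 without replicate 3 of both lines, a setting added after the data were seen. Of the 22, those that passed in every setting that tested them were AP1S1, BBS9, CHMP1B, CNOT8, COQ8A, HOOK1, DCP1B, DYNC1LI1, NUP58 and PDSS1.

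In shelterin, where TERF2, TERF2IP and ACD were lower, none of the 3 tested partners passed. TERF1, the other telomere repeat binder, had a log2 change of -0.02 with a 95% interval of -0.25 to 0.20, and its limma adjusted p was 0.865. TINF2, the most abundant partner, had a log2 change of 0.23 (0.04 to 0.42, limma adjusted p = 0.0678). None of the 9 tested partners of RBL2 and E2F4 among pocket proteins, E2F dimer partners and the MuvB core passed. LIN37, the most abundant of them, had a log2 change of 0.09 (-0.11 to 0.29). RUNX3, a partner of CBFB, rose by 0.53 (limma adjusted p = 0.0119), whereas RUNX1 was at -0.14 (-0.31 to 0.03). The 5 tested cohesin genes, which work with CTCF, did not pass, and RAD21 was at 0.12 (-0.08 to 0.33).

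Partners of the RNA members gave a mixed picture. CNOT8, a deadenylase of the CCR4-NOT complex, fell by 0.69 on the log2 scale (limma adjusted p = 0.00226), further than CNOT1, and CNOT6 was at -0.29 (limma adjusted p = 0.0239). CNOT3, the most abundant partner, was at 0.19 (0.02 to 0.36, limma adjusted p = 0.0799). None of the 5 tested SF3B partners of SF3B3 passed, and SF3B5 was at -0.03 (-0.22 to 0.16). The pore proteins NUP58 (0.40, limma adjusted p = 0.00615) and NUP35 (0.34, limma adjusted p = 0.0457) rose, and NUP188 was at 0.08 (-0.19 to 0.35). DCP1B, a decapping cofactor, rose by 0.52 (limma adjusted p = 0.0069), and EDC3 was at 0.13 (-0.05 to 0.31). Of 11 RNA polymerase II subunits tested, POLR2K passed, at -0.33 (limma adjusted p = 0.0118).

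Among transport partners, BBS9 fell by 0.90 on the log2 scale (limma adjusted p = 0.00112), as far as BBS2 on that scale. In plain levels BBS9 fell further, to 41.9% of its NCI-H1650 mean, beside 52.0% for BBS2. TTC8 was at -0.32 (limma adjusted p = 0.026) and BBIP1 at 0.38 (limma adjusted p = 0.0279), so the BBSome partners that passed went both ways. BBS1 was at -0.17 (-0.35 to 0.01). HOOK1, a partner of AKTIP, fell by 0.86 on the log2 scale (limma adjusted p = 0.0123), further than AKTIP, and HOOK2 was at -0.18 (-0.35 to -0.00). For AP-1, AP1S1 (-0.39, limma adjusted p = 0.00472) and AP1M2 (-0.28, limma adjusted p = 0.0161) fell. CHMP1B of ESCRT-III fell, at -0.45 (limma adjusted p = 0.00273), and CHMP4B was at 0.02 (-0.12 to 0.16).

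DYNC1LI1, the other dynein light intermediate chain, rose by 0.56 (limma adjusted p = 0.00401), opposite to DYNC1LI2, and DYNLL1 was at -0.06 (-0.21 to 0.10). Of the retromer partners, VPS26A rose by 0.23 (limma adjusted p = 0.0361) and the sorting nexin SNX27 was at -0.37 (limma adjusted p = 0.0476), while SNX2 was at -0.07 (-0.25 to 0.12). PIKFYVE, the kinase on the VAC14 scaffold, rose by 0.21 (limma adjusted p = 0.0484). COG2, of the Golgi tether, was at -0.05 (-0.22 to 0.12).

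In the signalling and metabolic assemblies, TRAF2 of the TNF receptor complex rose by 0.32 (limma adjusted p = 0.0335), and the receptor TNFRSF1A was at -0.19 (-0.33 to -0.04, limma adjusted p = 0.0551). CSNK2A1, the other catalytic subunit of casein kinase 2, was at 0.17 (-0.02 to 0.37), UBE2M of the NEDD8 pathway at 0.09 (-0.07 to 0.24) and RBCK1 of the linear ubiquitin ligase at 0.07 (-0.23 to 0.36). Of the coenzyme Q genes, PDSS1 (0.62, limma adjusted p = 0.00812) and COQ5 (0.23, limma adjusted p = 0.044) rose and COQ8A fell (-0.58, limma adjusted p = 0.00498), with COQ4 at -0.04 (-0.22 to 0.14). MMS19 was at -0.15 (-0.38 to 0.08) and PHKA1, a partner of PHKB, at -0.17 (-0.36 to 0.02). An interval that includes 0 does not show that a partner was unchanged.

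The 6 partners on chromosome 16 are given apart. COG7 (-1.17) and COQ7 (-1.08) lie on the short arm, as do NARFL (0.19) and PHKG2 (0.03). FAM96B, within the members' interval, was at -0.38, and CHMP1A, near the end of the long arm, at 0.44.

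**Figure D5:**
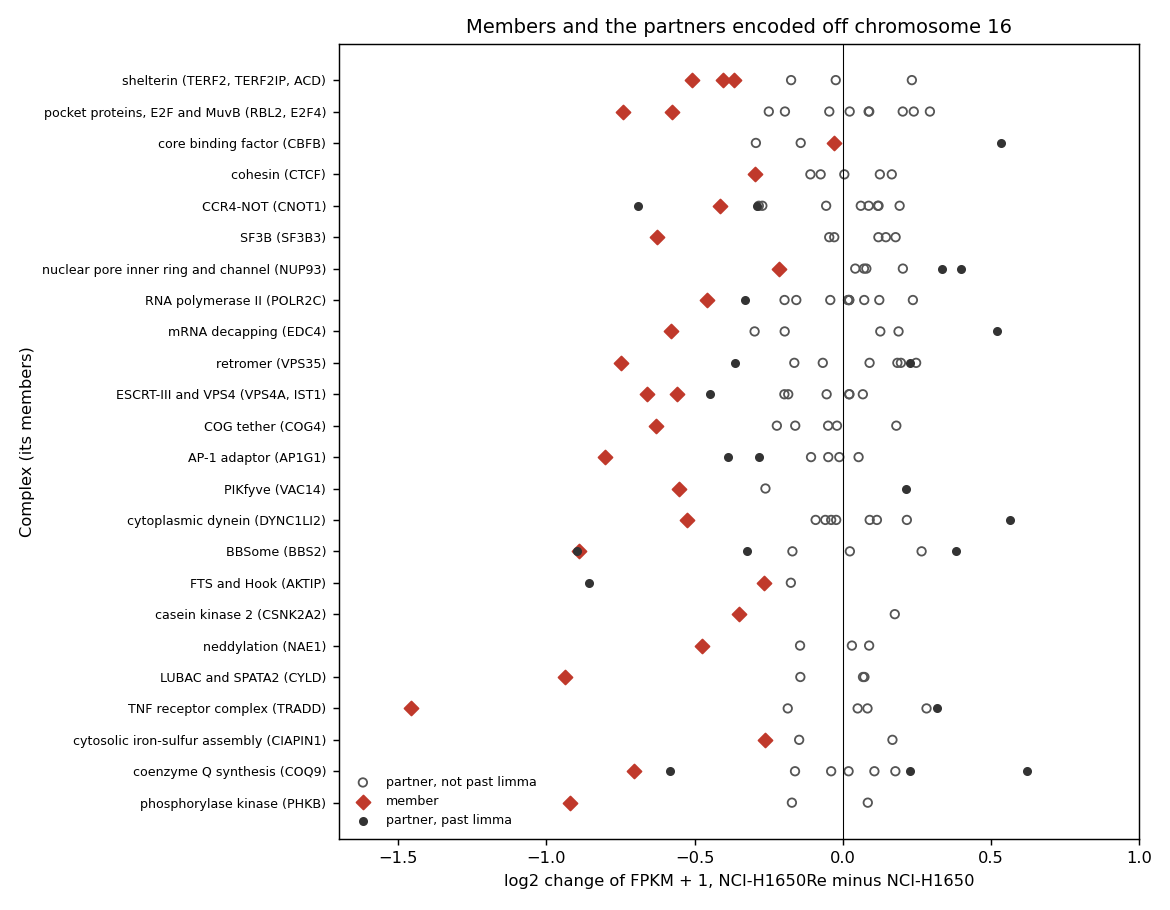
Log2 change (NCI-H1650Re minus NCI-H1650) of members (diamonds) and of their tested partners on other chromosomes (dots, filled where past limma's threshold) in 24 assemblies. Diamonds lie to the left of every dot in 20 of the 24, the exceptions being core binding factor, CCR4-NOT, BBSome and FTS and Hook.

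The libraries differed in ways that touch these values. The log2(FPKM + 1) values of replicates 1 and 2 correlated across genes at 0.997 in NCI-H1650 and 0.994 in NCI-H1650Re, and those of replicate 3 with the others of its line at 0.980 to 0.990, so replicate 3 stood somewhat apart in both lines. Without both, the member median was -0.57 and 54 of 56 members were below 0. Depth in FPKM is not known directly. From the genes with deposited counts, the libraries had 0.762 to 1 times the depth of replicate 1 of NCI-H1650. All 5 epithelial markers (EPCAM, KRT7, KRT8, KRT18 and CDH1) were expressed, with summed levels of 2812 to 3744 FPKM in NCI-H1650 and 2925 to 2989 FPKM in NCI-H1650Re. The sum hides differences among them: mean levels in NCI-H1650 and NCI-H1650Re were 148 and 104 FPKM for EPCAM, 1191 and 861 FPKM for KRT8 and 248 and 141 FPKM for CDH1, each lower in all NCI-H1650Re libraries. For KRT7 they were 799.7 and 1012 FPKM, higher in all NCI-H1650Re libraries, and for KRT18 783 and 846 FPKM, with overlap. Of 7 neuroendocrine markers, CHGA, SYP and DLL3 had values, summing to 4.47 to 5.59 FPKM in NCI-H1650 and 7.48 to 11.2 FPKM in NCI-H1650Re, and the others are not analysed here. COL1A1, of 5 fibroblast markers, was at 0.98 to 1.05 and 1.05 to 2.69 FPKM, and CD14, of 5 immune markers, at 1.09 to 1.86 and 0.13 to 0.29 FPKM. Their part in the members' values was not tested.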

How the data were processed

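Polyadenylated RNA of 3 NCI-H1650 and 3 NCI-H1650Re libraries was sequenced. FPKM values per gene were computed and deposited by the authors, estimated counts were deposited by the authors for the 860 genes they marked, and the p-value (as FDR) and log2 fold change per gene are also the authors', per the file headers. HISAT2, Bowtie2, RSEM and DESeq2 are listed in the submitters' processing notes, with no versions. The same notes list the mouse build mm10 although the identifiers are human, and no source used here names a human build. Coordinates came from GENCODE 29 (GRCh38), matched by Ensembl identifier for 11909 of 12659 genes.

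The 11764 genes averaging 1 FPKM or more in NCI-H1650 or NCI-H1650Re were fitted with limma 3.58.1 (R 4.3.3, variance trend) on log2(FPKM + 1), with Benjamini-Hochberg adjustment over all of them. Counts of other genes were not used, so no count model was run. The code was tested on simulated data, with 50 changes planted at each of 4 sizes among 11764 genes. It recovered 21 at a log2 change of -0.5, 26 at 0.5, and 45 at each of -1 and 1, with 9 false calls. With so few genes changed, the adjusted threshold was stricter there than in the real fit, where 3587 genes were called. The recovered shares therefore do not carry over to the real genes. How many changes were missed among the partners is not known. The members, gene lists and partner lists were chosen with earlier results of these data known. All members are named, with values per library for 24 chosen genes and for the largest and smallest change of each role group. Of the partners, all those past the threshold and the most abundant of each assembly (by mean FPKM over the 6 libraries) are named; TERF1 was added after its values were seen. Of the genes between the members, the 5 lowest and 5 highest, CDH1, CDH3 and the nearest outside each end are named. The genes at the far border, where calls turned from lower to higher, were named after their values were seen. So were those of the short-arm run. Alternatives were other pseudocounts, filters and scalings, a replicate block, no variance trend, and leaving out libraries.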

Additional observations from a re-analysis of the deposited data

How the results depend on the processing

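The members' median of -0.61 moved to -0.64 with a pseudocount of 0.1, -0.65 with 0.01 and -0.57 without replicate 3 of both lines (chosen after seeing the data), and ran from -0.63 to -0.58 when 1 library was left out. Their SD of 0.27 became 0.31 without replicate 3 of both and ran from 0.26 to 0.30 with 1 left out. The median of the genes between the members, -0.53, was -0.63 with a pseudocount of 0.1 and -0.64 with 0.01, and -0.56 to -0.51 with 1 library left out. With 1 library left out, the 3587 genes called over the table became 1785 to 4478 and the 22 partners called 11 to 34, and 39 partners were called without replicate 3 of both. No partner call changed direction in any of the 15 settings, and 10 of the 22 were kept in each setting that tested them. CBFB turned above 0 without replicate 1 of NCI-H1650 (0.01), without replicate 3 of NCI-H1650Re (0.05) and without replicate 3 of both (0.04). ELMO3 did so without replicate 3 of NCI-H1650 (0.06), without replicate 3 of NCI-H1650Re (0.16) and without both (0.29). Scaling by median of ratios or quantiles gave member medians of -0.63 and -0.64.

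Replicate numbers were not shown to pair the samples: the deviations of same-numbered libraries correlated at 0.17, -0.04 and 0.21. With the replicate block, 3522 genes and 19 partners were called, and the members' median was -0.61. The depth of each library is known only relative to the others, and 3 libraries per line limit the precision of every value.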
